A study of Mus musculus with 2 samples.

Results

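Zfp genes encode zinc finger proteins, and 181 of them made up the set described here. Members were chosen by their name and their UMI total: a member is a protein-coding gene whose symbol is Zfp followed by a number, with a sum of 50 or more unique molecular identifiers (UMIs, one per captured transcript) over 24 single embryos; Zfp42 was left out. They were 181 of the 364 such genes in a table of 52366 genes, of which 152 had 1 to 49 UMIs and 31 had 0. At the edge of the rule stood Zfp984, Zfp623 and Zfp113 with 50 UMIs each inside it, and Zfp605 with 49, Zfp51 with 48 and Zfp994 with 48 outside it. Because the rule summed UMIs over all embryos and 69.3% of all UMIs came from 2CB and 4CB embryos, it weighted those embryos, and the overall level of a member is a description. When the same number of Zfp genes was taken by mean level over embryos instead, 175 of them were shared.

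A C2H2 zinc finger is a short fold held together by a zinc ion between a pair of cysteines and a pair of histidines, and an array of fingers reads DNA, or in some proteins RNA. Many of the genes also encode a Krüppel-associated box (KRAB), a short domain that recruits the scaffold Trim28 and, through it, the H3K9 methyltransferase Setdb1, heterochromatin protein 1 and DNA methyltransferases. KRAB zinc finger proteins are known for silencing retroelements and for keeping methylation at imprinted loci through the preimplantation stages, whereas other Zfp proteins work in transcription, RNA processing or ribosome assembly.

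The embryos were mouse pseudoblastocysts, which are embryos with a cavity taken without checking for an inner cell mass (ICM), from oocytes of B6D2F1 females fertilised in vitro with ICR sperm. There were 6 1C embryos, from zygotes freed of the zona pellucida with Actinase at 5 h postinsemination (hpi), and 6 each of 2CB, 4CB and 8CB embryos, which grew from 1 blastomere isolated at 24 hpi (2CB) or 48 hpi (4CB and 8CB), and all were collected at 96 hpi. Libraries were made by CEL-Seq2, a 3′ end counting method, in 2 pools. The 12 1C and 8CB embryos shared a pool and so did the 12 2CB and 4CB embryos, so a difference between pools and a difference between those stages cannot be told apart. Nothing says that the embryos of a stage came from separate parents, so p-values measure the spread between these embryos.

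Total UMIs per embryo ranged from 70941 (8CB replicate 6) to 1507471 (2CB replicate 2). Of 9 trophectoderm markers examined, Elf5 was at 0 in every 1C embryo and Gata2 in every 8CB embryo, and the other 7 were detected in every stage. Their sum was 5.70 to 11.4 UMIs per 10000 over the 1C and 8CB embryos and 26.4 to 55.5 over the 2CB and 4CB embryos, with 7 of the 9 higher there, Tfap2c lower and Tead4 not passing the test used below. Markers of epiblast and ICM summed to 5.36 to 19.9 per 10000 in 1C and 8CB embryos and 2.49 to 9.63 in 2CB and 4CB embryos, but the 5 of 8 that were tested went both ways, with Nanog, Klf2 and Esrrb lower and Sox2 and Tdgf1 higher. Primitive endoderm markers summed to 6.40 to 11.4 in 1C and 8CB embryos and 7.91 to 17.0 in 2CB and 4CB embryos, with 4 of 5 tested higher and Gata6 lower. The part of these markers in the differences below was not tested. Of 6 cumulus cell markers 5 were at 0 in every embryo. In whole embryos, fewer cells of a type and less RNA per cell cannot be told apart.

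The proteins of the 181 genes held up to 33 fingers (Zfp462), and 85 of them had 10 or more. A KRAB box matched a fixed 13-residue pattern in 66 of them, and a profile built from those matches found 95, including Zfp57, Zfp445, Zfp568 and Zfp932. The 95 had a median of 11 fingers and the other 86 a median of 6. Of the 95, 74 lay within 500 kb of another member, against 29 of the 86. Chromosome 7 held 42 members and chromosome 17 held 23, and the largest of 30 clusters had 9 members, from Zfp948 to Zfp758 on chromosome 17 (21567008 to 22377281, GRCm38), each with a KRAB box by the profile. Of these 9, 3 were tested and 1, Zfp820, was called in the test described below (33.3%, against 55.3% of all genes tested).

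The coding sequence of the KRAB box is shown for the 7 members that matched the fixed pattern and differed between 2CB with 4CB and 1C with 8CB, since it is what these genes share apart from their fingers. Each stretch is the GENCODE M21 coding strand, 5′ to 3′, with the codons of the closing glutamate and tryptophan in capitals, and lies in 1 coding exon.
Zfp617 (chr8:71928214-71928252, plus strand): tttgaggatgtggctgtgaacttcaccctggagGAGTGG
Zfp961 (chr8:71965806-71965844, plus strand): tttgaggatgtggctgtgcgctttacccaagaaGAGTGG
Zfp157 (chr5:138444764-138444802, plus strand): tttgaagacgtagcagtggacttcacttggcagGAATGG
Zfp820 (chr17:21821146-21821184, minus strand): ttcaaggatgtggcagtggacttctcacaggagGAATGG
Zfp772 (chr7:7206322-7206360, minus strand): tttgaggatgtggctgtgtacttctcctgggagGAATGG
Zfp954 (chr7:7117862-7117900, minus strand): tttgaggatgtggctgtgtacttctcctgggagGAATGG
Zfp599 (chr9:22258121-22258159, minus strand): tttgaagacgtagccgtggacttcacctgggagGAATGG
Zfp617, Zfp961 and Zfp157 were higher in 2CB and 4CB embryos and the other 4 lower, so both directions occurred among these boxes. The stretches of the neighbours Zfp772 and Zfp954 were identical, and the stretch of Zfp820 was also that of Zfp942 and Zfp758 in its own cluster.

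For the member with a KRAB box and the largest increase, Zfp57, and the member with the largest decrease, Zfp239, the first finger is shown, with the codons of its cysteines and histidines in capitals.
Zfp57 (chr17:37009679-37009741, plus strand): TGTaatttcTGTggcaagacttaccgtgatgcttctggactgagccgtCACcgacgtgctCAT
Zfp239 (chr6:117871324-117871386, plus strand): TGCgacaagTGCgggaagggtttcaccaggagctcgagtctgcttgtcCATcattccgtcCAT
Zfp57 had 3 fingers by the pattern and Zfp239 had 7.

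Summed over the 181 members, 1C embryos gave 0.725% ± 0.057 of all UMIs (0.645 to 0.799%) and 8CB embryos 0.717% ± 0.140 (0.560 to 0.944%; SD, n = 6 each). The 2CB embryos gave 0.631% ± 0.030 (0.591 to 0.672%) and the 4CB embryos 0.681% ± 0.049 (0.616 to 0.733%). The 4 ranges overlapped. The highest value was that of 8CB replicate 5. Between 92 and 181 members had a UMI in an embryo, and all 181 did only in 2CB replicate 2 and 4CB replicate 4, which were the deepest embryos of their stages.

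Of the 6 members with the most UMIs, 3 were lower in 2CB and 4CB embryos, namely Zfp622, Zfp207 and Zfp706, and 3 did not pass the test described below. Of all genes tested with 1000 or more UMIs, 62.6% passed it and 30.5% were lower, so nothing is read from this count. Zfp207 no longer passed without any 1 of 8 embryos. Zfp622, a factor of late 60S ribosomal subunit assembly, led with 7174 UMIs. Its level as CPM, a gene's UMIs scaled to the total UMIs of the embryo, had a median of 1137 over 1C (673 to 1413) and 973 over 8CB embryos (611 to 2337). The medians were 592 CPM over 2CB (390 to 1147) and 748 CPM over 4CB embryos (441 to 1002). The 1C and 8CB embryos were on average above the others, but the ranges overlapped, and the log2 fold change of 2CB with 4CB against 1C with 8CB was -0.66 ± 0.22 (SE; adjusted p = 0.0143). Zfp771 (3205 UMIs), Zfp568 (2987) and Zfp979 (2612) were the others, with -0.22 ± 0.30, -0.19 ± 0.20 and -0.36 ± 0.38. Of the words of 50 bases in the last 500 bases of Zfp979 transcripts, 34.2% also occur in Zfp978, so its counts may be split between them.

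Whether members differed among the stages was asked with edgeR's quasi-likelihood test over 5940 genes, called at a Benjamini-Hochberg adjusted p below 0.1. A filter on low counts kept 82 of the 181 members, and the other 99 are described after them. Because a member could pass the filter through the stage in which it was high, the counts below describe the tested members and not the set. The adjusted p of such a member describes its counts in these embryos and is no independent test. Among the 4 stages 30 of 82 members (36.6%) were called, against 47.1% of all genes tested.

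In 2CB with 4CB against 1C with 8CB embryos, 33 of 82 members (40.2%) were called, against 55.3% of all genes. Of these, 14 were higher (17.1%, against 31.3% of all genes) and 19 lower (23.2%, against 24% of all genes). The difference between these shares was not tested. Their median log2 fold change was -0.01, against 0.12 for all genes tested. The split into higher and lower moved with depth: with every embryo thinned to 70941 UMIs and the same genes, 6 were higher and 18 lower. The shares of all genes called after thinning were not counted, so this is not read as a trait of the members. Members had fewer UMIs than other tested genes (a median of 373, against 622) and a larger spread between embryos (a median biological coefficient of variation of 0.484, against 0.417). Within bands of equal level the shares called of members and of all genes were 27.6% (8 of 29 members) against 48.6% under 300 UMIs. They were 45.5% (20 of 44) against 52.9% from there to 1000 UMIs, and 55.6% (5 of 9) against 62.6% above.

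**Figure D1:**
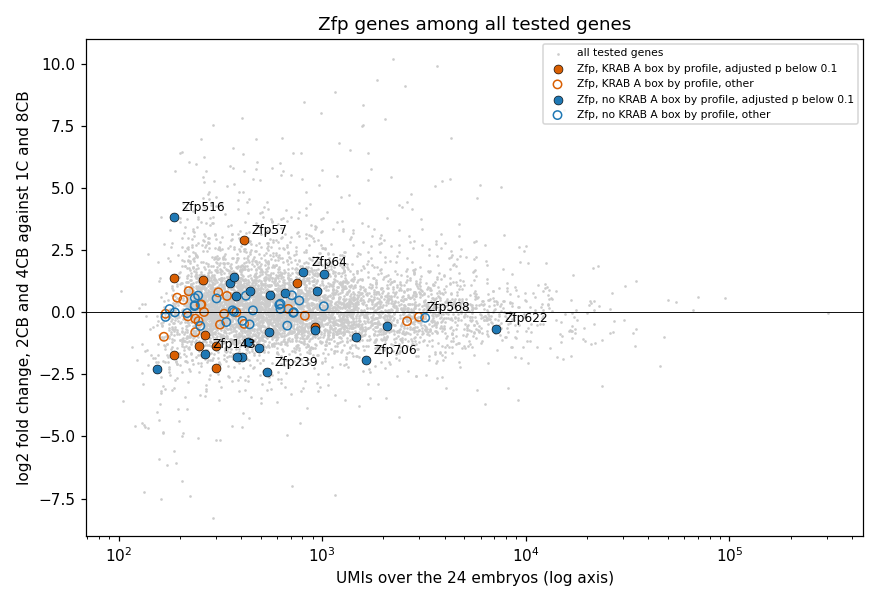
Each point is a gene tested, with its UMIs summed over 24 embryos on the horizontal log axis and its log2 fold change of 2CB with 4CB against 1C with 8CB on the vertical axis; grey points are all 5940 genes, orange points members with a KRAB box by the profile and blue points members without, filled where the adjusted p was below 0.1. The 82 members are spread on both sides of 0, from Zfp239 at -2.41 to Zfp516 at 3.81.

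Among members with a KRAB box by the profile 32 of 95 were tested, 4 were higher and 6 lower, with a median log2 fold change of -0.10. Among the others 50 of 86 were tested, 10 were higher and 13 lower, with a median of 0.05. The shares called were 31.2% and 46%, both below the 55.3% of all genes tested (31.3% higher and 24% lower). By the fixed pattern 20 of 66 were tested, 3 higher and 4 lower. The difference between these classes was not tested.

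The increases were led by Zfp516 and Zfp57. Zfp516, a factor known from brown fat cells that activates Ucp1, had 0 to 6.86 CPM in 1C and 0 to 3.28 CPM in 8CB embryos (medians of 1.36 and 1.52), against 6.19 to 67.8 CPM in 2CB and 15.1 to 102 CPM in 4CB embryos (medians of 18.3 and 40.3). The sides overlapped by 1 pair of embryos, in which a 1C embryo at 6.86 CPM exceeded a 2CB embryo at 6.19 CPM. Its log2 fold change was 3.81 ± 0.55 (adjusted p = 1.63e-06), on 3 UMIs in 1C and 3 in 8CB embryos. Zfp516 met the rule and passed the filter through 2CB and 4CB embryos, so this p-value is no independent test.

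Zfp57, a KRAB protein that binds methylated imprinting control regions and recruits Trim28 to them, had a median of 4.87 CPM in 1C embryos (0 to 16.3) and 4.75 CPM in 8CB embryos (0 to 18.2). It had a median of 60.1 CPM in 2CB embryos (30.04 to 109) and 34.8 CPM in 4CB embryos (13.3 to 152). Every 2CB embryo was above every 1C and 8CB embryo, and of the 4CB embryos only the lowest, at 13.3 CPM, lay within their range. The log2 fold change was 2.91 ± 0.48 (adjusted p = 1.07e-05), and it was 3.40 ± 0.68 for 2CB against 1C and 2.42 ± 0.67 for 4CB against 8CB. With 22 UMIs in 1C and 8CB embryos against 391, Zfp57 too passed the filter through 2CB and 4CB embryos, and the same limit holds.

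Zfp64 had a mean of 49.5 ± 37.5 CPM over 1C and 26.9 ± 19.9 CPM over 8CB embryos, against 136 ± 65.0 CPM over 2CB and 99.0 ± 50.3 CPM over 4CB embryos (SD, n = 6), and its log2 fold change was 1.63 ± 0.34 (adjusted p = 0.000234). Zfp710 had 59.8 ± 36.9, 31.6 ± 22.5, 124 ± 41.2 and 159 ± 47.8 CPM in the same order, with 1.54 ± 0.32 (adjusted p = 0.00019). In Zfp652 the order within the higher side was 34.5 ± 16.2 CPM in 2CB and 63.5 ± 14.8 CPM in 4CB embryos, against 20.6 ± 15.7 in 1C and 13.5 ± 8.19 in 8CB embryos. Its log2 fold change was 1.43 ± 0.38 (adjusted p = 0.00285). Zfp652 overlaps Phospho1 on its strand, and Zfp710 overlaps the unnamed gene model Gm44951.

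Zfp157, a KRAB gene, had a median of 0 CPM in 1C embryos (0 to 11.7), against 11.7 CPM in 8CB (0 to 42.5), 18.3 CPM in 2CB (5.21 to 41.1) and 26.6 CPM in 4CB embryos (6.38 to 47.1). Only 2 of the 6 1C embryos had a UMI of it, and the log2 fold change was 2.59 ± 0.81 for 2CB against 1C and 0.13 ± 0.66 for 4CB against 8CB. The pooled value of 1.36 ± 0.53 (adjusted p = 0.0331) became 2.10 without 1C replicate 5. A test of the difference between these comparisons called 0 members and 0 genes; the unadjusted p was below 0.05 for 7 members and 8.96% of all genes.

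Zfp961 and Zfp617, KRAB genes of 1 cluster on chromosome 8, were both higher in 2CB and 4CB embryos, at 1.30 ± 0.46 (adjusted p = 0.0202) and 1.16 ± 0.39 (adjusted p = 0.0152). On their own strand, Zfp961 overlaps the gene model Gm45694 and Zfp617 overlaps Zfp882. Zfp961 had 0 to 11.2 CPM in 8CB and 8.09 to 34.3 CPM in 1C embryos, and both lay within the range of 2CB and 4CB embryos (0 to 83.7). Zfp428 closed the first 8, with 24.6 ± 17.8 CPM over 1C and 14.1 ± 10.4 CPM over 8CB embryos, against 52.9 ± 30.9 CPM over 2CB and 37.9 ± 13.4 CPM over 4CB embryos, and 1.18 ± 0.37 (adjusted p = 0.00979). The other 5 increases, of Zfp444, Zfp553, Zfp638, Zfp704 and Zfp800, ranged from 0.67 to 0.86. Of these, Zfp444, Zfp638 and Zfp800 also overlap gene models on their strand. Thinned to equal depth with the same genes, Zfp652, Zfp157, Zfp961 and Zfp428 no longer passed (adjusted p = 0.175, 0.236, 0.295 and 0.5).

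**Figure D2:**
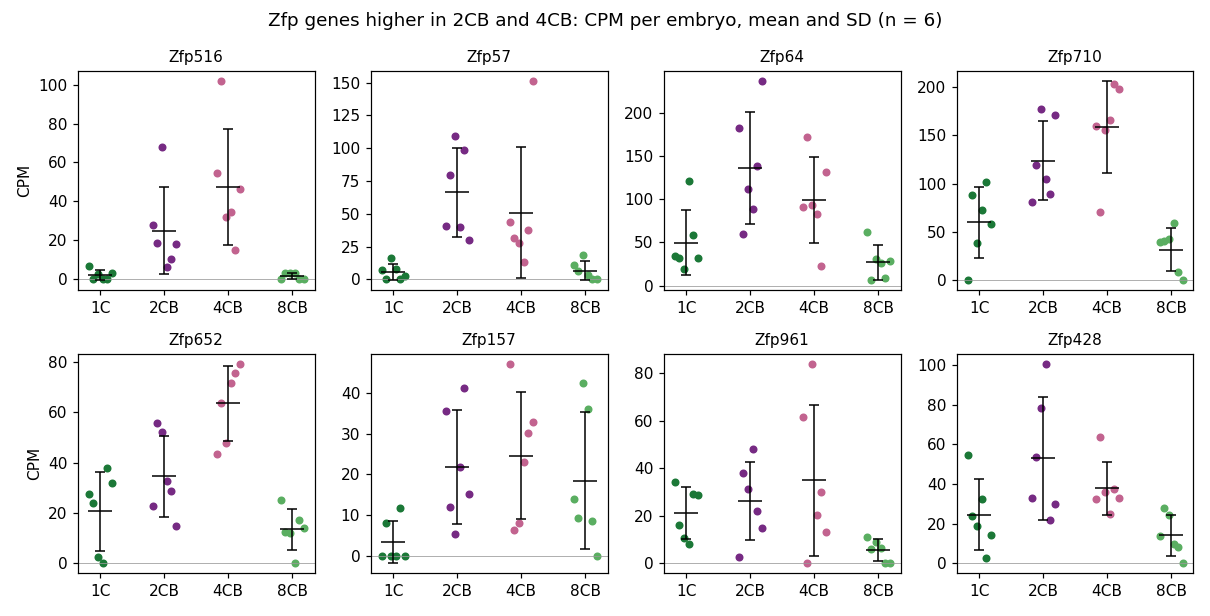
CPM of the 8 members with the largest increases in 2CB with 4CB embryos, 1 point per embryo, with the mean and SD (n = 6) per stage; the vertical axes differ between genes. Every 2CB embryo of Zfp57 is at 30.04 CPM or more and every 1C and 8CB embryo at 18.2 CPM or less, whereas 8CB embryos of Zfp157 reach 42.5 CPM and 2CB embryos 41.1 CPM.

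The decreases were led by Zfp239, a small zinc finger protein that was found to bind both DNA and RNA. Zfp239 had a median of 64.7 CPM in 1C embryos (29.9 to 170) and 153 CPM in 8CB embryos (43.6 to 461), against 16.2 CPM in 2CB (7.74 to 32.5) and 32.8 CPM in 4CB embryos (9.97 to 58.0). The lower 1C and 8CB embryos reached into the range of 2CB and 4CB embryos. The log2 fold change was -2.41 ± 0.38 (adjusted p = 5.47e-06).

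Its neighbour on chromosome 6, Zfp637, was lower as well. Zfp637 had a median of 75.2 CPM over 1C (56.6 to 152) and 79.9 CPM over 8CB embryos (42.3 to 128), against 28.9 CPM over 2CB (11.5 to 48.3) and 10.4 CPM over 4CB embryos (0 to 60.3), with a log2 fold change of -1.81 ± 0.34 (adjusted p = 6.87e-05). The same held for the neighbours Zfp772 and Zfp954, at -1.37 ± 0.41 and -1.38 ± 0.39, and for Zfp579 and Zfp865, at -2.29 ± 0.50 and -1.43 ± 0.40. In all, 4 clusters had more than 1 called member, and in each the 2 called members moved the same way: 3 pairs lower and the pair of Zfp961 and Zfp617 higher. The share of other neighbouring genes that moved the same way was not counted, so nothing is read from these 4 pairs. For Zfp865, 31.8% of the words at the 3′ end also occur in Gm44973.

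Zfp706, a 1-finger protein that favours exit from self-renewal in embryonic stem cells, was the most abundant of the 8 with the largest decreases. It had a median of 304 CPM in 1C (157 to 485) and 321 CPM in 8CB embryos (141 to 472), against 67.5 CPM in 2CB (51.1 to 166) and 83.3 CPM in 4CB embryos (46.1 to 123). All but 1 of the 12 2CB and 4CB embryos were below every 1C and 8CB embryo, the exception being 2CB replicate 2 at 166 CPM. The log2 fold change was -1.91 ± 0.25 (adjusted p = 2.52e-07), the lowest adjusted p among members, and 13.8% of the words at its 3′ end occur also in Gm11127.

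Zfp821 had 55.4 to 178 CPM in 1C and 43.6 to 102 CPM in 8CB embryos, against 17.8 to 26.8 CPM in 2CB and 14.5 to 59.3 CPM in 4CB embryos. The 2CB embryos were closely grouped and all below the 1C and 8CB embryos, and 4CB embryos reached into that range. Its log2 fold change was -1.79 ± 0.25 (adjusted p = 1.34e-06).

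Zfp212, with a KRAB box by the profile, had 24.3 to 52.0 CPM in 1C and 14.1 to 44.8 CPM in 8CB embryos, against 5.08 to 14.4 CPM in 2CB and 5.98 to 18.6 CPM in 4CB embryos, and changed by -1.73 ± 0.29 (adjusted p = 1.8e-05). Zfp820, a KRAB gene of the large cluster on chromosome 17, had a median of 72.3 CPM over 1C (32.4 to 104) and 37.5 CPM over 8CB embryos (12.1 to 375), against 17.0 CPM over 2CB (4.64 to 27.9) and 21.8 CPM over 4CB embryos (6.38 to 30.1). Every 1C embryo was above every 2CB and 4CB embryo, but 8CB embryos overlapped with them, and 8CB replicate 5 at 375 CPM stood far above the others. The log2 fold change was -2.24 ± 0.46 (adjusted p = 0.000213).

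**Figure D3:**
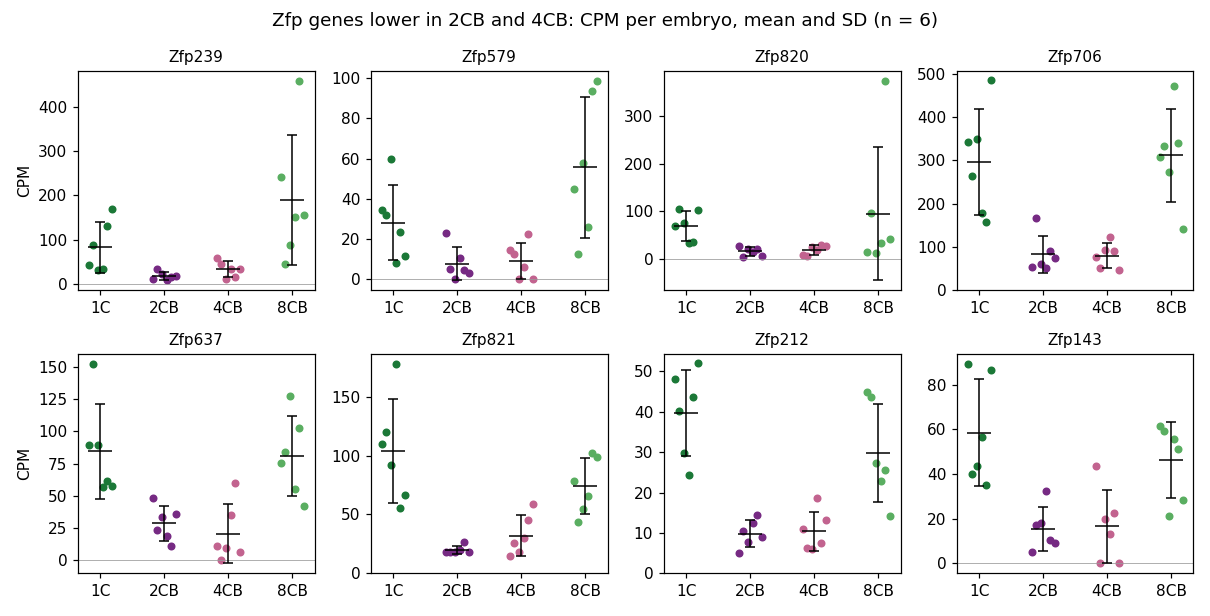
CPM of the 8 members with the largest decreases in 2CB with 4CB embryos, drawn as for the increases. In Zfp706, 2CB and 4CB embryos sit at 46.1 to 166 CPM and 1C and 8CB embryos at 141 to 485 CPM.

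None of the 82 tested members separated the 12 and 12 embryos without overlap, whereas 3.54% of all genes did so upwards and 2.21% downwards. Both comparisons that make up the contrast gave calls. In 2CB against 1C embryos 25 members were called, 11 higher and 14 lower (30.5%, against 41.5% of all genes). In 4CB against 8CB embryos 26 were called, 12 higher and 14 lower (31.7%, against 40.2%). In both, 5 were higher and 9 lower, and 0 were called in opposite directions, together 17.1% of the tested members. Of all genes tested 27.3% were called in both, 16.2% higher in both and 11% lower in both, and 6 in opposite directions.

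**Figure D4:**
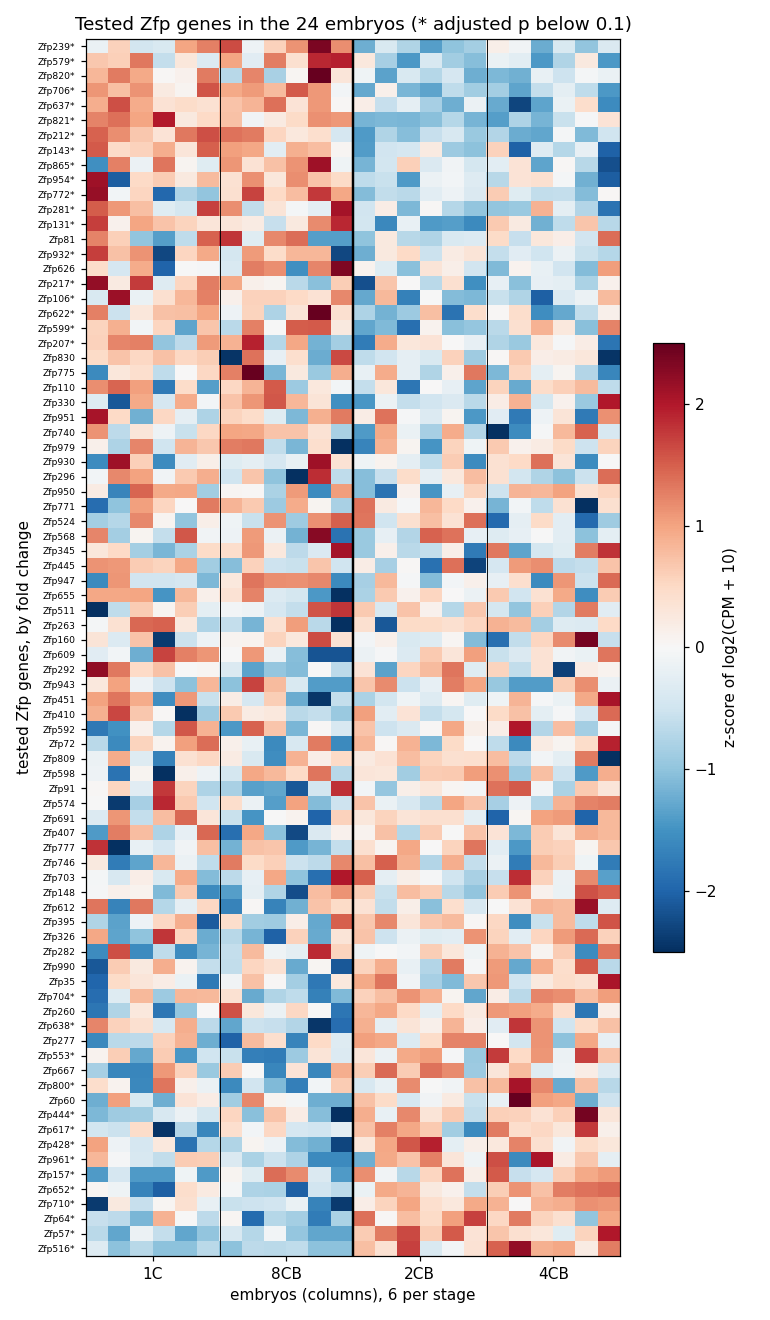
The 82 tested members (rows, ordered by log2 fold change) in the 24 embryos (columns, in blocks of 1C, 8CB, 2CB and 4CB); colour is the z-score of log2(CPM + 10) per gene and an asterisk marks an adjusted p below 0.1. The 19 lower members are mostly red in the 1C and 8CB blocks and the 14 higher members mostly red in the 2CB and 4CB blocks, with single embryos that go against this in nearly every row.

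Within a pool, where the library pool was held fixed, 0 members were called. For 8CB against 1C embryos the lowest adjusted p was 0.269, edgeR called 0% of all genes, and an unadjusted p below 0.05 was found for 6 members and for 9.26% of all genes. DESeq2 also called 0 members there (0.724% of all genes). The 3 smallest p-values belonged to Zfp638 (log2 fold change of -1.23 ± 0.39), Zfp157 (2.56 ± 0.85) and Zfp292 (-1.03 ± 0.37). Zfp638, which takes part in the silencing of retroviral DNA, had a median of 68.7 CPM in 1C (34.6 to 103) and 27.6 CPM in 8CB embryos (8.53 to 37.4), ranges that overlapped.

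For 4CB against 2CB embryos 0 members were called, against 0.0337% of all genes, and an unadjusted p below 0.05 was found for 5 members and 4.43% of genes; DESeq2 called 0 members (0.152% of genes). The 3 smallest p-values were those of Zfp599 (0.82 ± 0.33), Zfp131 (0.74 ± 0.32) and Zfp524 (-1.28 ± 0.59). Zfp131, a zinc finger protein with a BTB domain, had 74.3 to 164 CPM in 2CB and 93.7 to 264 CPM in 4CB embryos, below 192 to 453 CPM in 1C and 134 to 493 CPM in 8CB embryos on average. In the contrast of the pools it was lower at -1.001 ± 0.23 (adjusted p = 0.000652).

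Of the members known for imprint and retroelement control, 5 were tested, of which Zfp57 was higher and Zfp932 lower (40% called, against 55.3% of all genes tested). Zfp932, which binds retroelements of the ERVK class, changed by -0.91 ± 0.35 (adjusted p = 0.0335), and 45.6% of the words at its 3′ end occur also in its paralog Gm15446. Zfp568, which represses a placental promoter of Igf2, had medians of 285 CPM over 1C, 274 CPM over 8CB, 267 CPM over 2CB and 263 CPM over 4CB embryos. Zfp445, a second imprint protector, changed by -0.14 ± 0.23, and Zfp809, which recognises the primer binding site of murine leukaemia viruses, by 0.13 ± 0.33. Neither passed the test, and their ranges overlapped.

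Among 11 members with roles in transcription and chromatin 7 were tested, 0 were higher and 3 lower (42.9% called, against 55.3% of all genes). Of all genes tested 31.3% were higher and 24% lower, and the split among these 7 was not tested. Zfp143, which binds promoters, had 35.0 to 89.2 CPM in 1C and 21.3 to 61.7 CPM in 8CB embryos, against 5.08 to 32.5 CPM in 2CB and 0 to 43.5 CPM in 4CB embryos, and changed by -1.67 ± 0.37 (adjusted p = 0.000479). Zfp281, which acts in the transition of pluripotent states, changed by -1.20 ± 0.35 (adjusted p = 0.0056), and Zfp217, a partner of CoREST complexes, by -0.80 ± 0.29 (adjusted p = 0.0233). Zfp410, an activator of Chd4, changed by 0.07 ± 0.32, and Zfp148, Zfp296 and Zfp592 also did not pass. Zfp148, at 0.47 ± 0.26 (adjusted p = 0.134), passed without 1C replicate 5, 8CB replicate 5 or 8CB replicate 6 (adjusted p of 0.0867 to 0.0991). Thinned to equal depth, Zfp217 did not pass (adjusted p = 0.122).

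Among 12 members that act on RNA, ribosomes or protein quality 9 were tested. Zfp638 was higher at 0.68 ± 0.26 (adjusted p = 0.0336), and Zfp622, Zfp106 and Zfp207 were lower (44.4% called, against 55.3% of all genes). Zfp106, an RNA-binding protein, changed by -0.71 ± 0.22 (adjusted p = 0.00948), and Zfp207, a spindle protein that binds Bub3, by -0.57 ± 0.27 (adjusted p = 0.0856). The call of Zfp638 was lost without 4CB replicate 2 (adjusted p = 0.12), without a filter on low counts (0.172) and when thinned to equal depth with the same genes (0.329). That of Zfp207 was lost without any 1 of 8 embryos, namely 1C replicates 2, 3 and 6, 2CB replicates 1 and 6, and 8CB replicates 1, 2 and 4 (adjusted p of 0.1 to 0.185), and with the replicate block (0.12). Zfp326, Zfp830 and Zfp91 did not pass but did without 8CB replicate 4, 8CB replicate 1 and 8CB replicate 6, respectively (adjusted p = 0.088, 0.066 and 0.0987). Zfp598, the ubiquitin ligase that senses collided ribosomes, changed by 0.13 ± 0.25, and Zfp451, a SUMO ligase, by 0.02 ± 0.28.

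Below the filter stood 99 members, too low to be tested with the others. When every gene with a UMI was kept in the fit, 55 of 181 members (30.4%) were called, 34 higher and 21 lower. Of all 23171 genes, 23.8% were called, 14.2% higher and 9.61% lower. Members held 50 or more UMIs by the rule and the 23171 genes included those with fewer, so these shares are not alike. Of the 99, 22 were higher and 1, Zfp707, was lower. The members were chosen by their summed UMIs, of which 2CB and 4CB embryos hold 69.3% over all genes, so nothing is read from this split. Of the 3738 genes with 50 or more UMIs below the filter, 32.4% were called, 24.1% higher and 8.29% lower. The increases rested on few UMIs in the 1C and 8CB embryos. The following 5 were chosen after their values were seen, as those with the largest fold changes.

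Zfp523 had 0 UMIs in each of the 12 1C and 8CB embryos and 2 to 14 UMIs in each of the 12 2CB and 4CB embryos, 81 in all. It was the only member whose sides did not overlap, and the share of other genes below the filter without overlap was not counted. The exact 95% lower limit of the ratio of summed levels was 9.52. Zfp523 and Zfp931 met the rule through 2CB and 4CB embryos alone, so their limits describe the UMIs counted and are no test. Against the floor of 3 counts over the 1C and 8CB embryos the ratio was 11.97. Zfp931 had 0 against 55 UMIs, with a lower limit of 6.39 (8.13 against the floor), but 38 of the 55 came from 2CB replicate 2.

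Zfp248 had 6 against 152 UMIs, a ratio of summed levels of 11.2 (95% interval of 5.04 to 31.1). Zfp62 had 2 against 85 UMIs (18.8, 5.06 to 158), and Zfp462, a protein of heterochromatin and pluripotent cells, 2 against 65 (14.4, 3.83 to 122). Zfp248, Zfp62 and Zfp462 also met the rule through 2CB and 4CB embryos, so their intervals describe the UMIs counted and are no test. Of the UMIs of Zfp62, 33 came from 2CB replicate 5, and of those of Zfp462, 20 came from 4CB replicate 3. The intervals are exact and cover counting error only. Zfp984, at the edge of the rule, went the other way, with 30 against 20 UMIs (0.296, 0.159 to 0.538), although its test without a filter did not pass (adjusted p = 0.167). Within the pool of 1C and 8CB, Zfp866 was the 1 member called without a filter, at 2.93 ± 0.83 (adjusted p = 0.0998), on 0 to 15 UMIs an embryo. Of the 23171 genes with a UMI, 0.449% were called in that comparison, 0.186% higher.

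**Figure D5:**
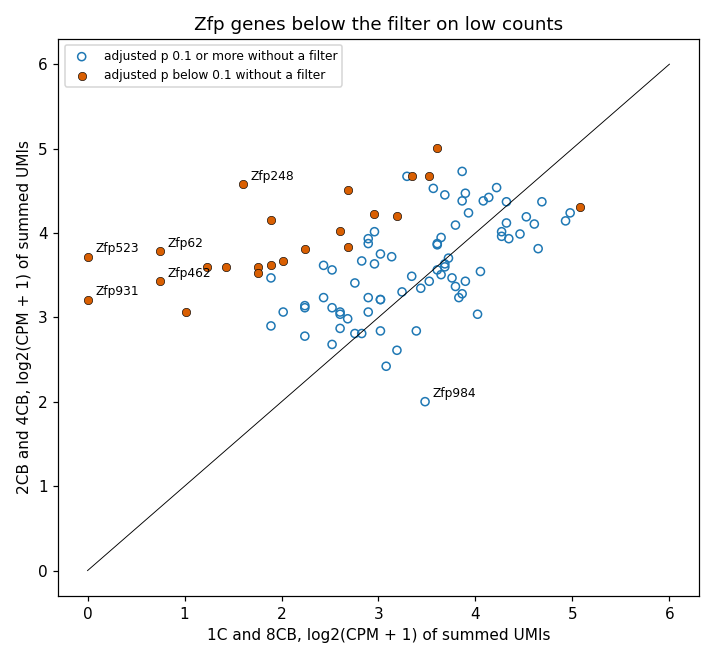
The 99 members below the filter, by log2(CPM + 1) of their UMIs summed over 1C and 8CB embryos (horizontal) and over 2CB and 4CB embryos (vertical); the line marks equal levels and orange points are those with an adjusted p below 0.1 without a filter. Nothing is read from the side of the line on which the orange points lie.

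The partners of KRAB proteins were taken as a list of 34 genes, of which 29 were tested, 10 were higher in 2CB and 4CB embryos and 7 lower (58.6% called, against 55.3% of all genes), with a median log2 fold change of 0.27. Trim28, the scaffold that KRAB boxes bind, was abundant throughout, at 3935 ± 800 CPM over 1C, 5325 ± 880 CPM over 8CB, 6991 ± 1950 CPM over 2CB and 5552 ± 1657 CPM over 4CB embryos (SD, n = 6), with a log2 fold change of 0.42 ± 0.16 (adjusted p = 0.0316). The largest increase was that of Dnmt3b, a de novo DNA methyltransferase, which had 66.1 ± 46.1 CPM in 1C and 38.9 ± 30.8 in 8CB, against 395 ± 166 in 2CB and 492 ± 214 in 4CB embryos, a change of 3.05 ± 0.31 (adjusted p = 5.15e-09).

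Dnmt1, the maintenance enzyme, rose by 1.81 ± 0.37 (adjusted p = 0.000188) and Dnmt3l, the cofactor of de novo enzymes, by 1.15 ± 0.22 (adjusted p = 0.000109). Chd3, Suv39h2, Cbx1, Mphosph8, Atf7ip and Atrx were the other increases. Among the decreases, Dppa3, which protects maternal methylation, changed by -1.26 ± 0.21 (adjusted p = 1.83e-05), and Trim24, Cbx3, Morc3, Hdac2 and Daxx were also lower. Setdb1, Hdac1, Atf7ip2, Suv39h1 and Sumo2 were too low to be tested, and within the pools 0 of the 29 were called.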

How the data were processed

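The authors prepared CEL-Seq2 libraries of single embryos and deposited raw counts, whole numbers of UMIs per gene and embryo, before any normalization. Per the labels, HISAT2 2.2.6, HTSeq 0.6.1 and DESeq2 1.10.1 were used, with GRCm38. The annotation release is not given in the sources used here. Another 24 columns, of Morula embryos, were not used. The members and lists were chosen with earlier results of these data known, as were the cofactor, role and marker lists.

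Identifiers were matched to GENCODE M21 without the version, and 51719 of 52366 genes had a symbol. Coding sequences of M21 were translated to find fingers (C, 2 to 4 residues, C, 12 residues, H, 3 to 5 residues, H) and KRAB boxes, since no protein table was at hand, with a profile (pyhmmer 0.12.3, E-value limit 0.001) added after seeing the data. Counts were filtered with filterByExpr (minimum count 10), normalized by TMM (factors 0.928 to 1.07) and tested with edgeR 4.0.16 in R 4.3.3, 1 mean per stage, all 24 embryos, at a Benjamini-Hochberg adjusted p below 0.1. CPM used the raw total. Fold changes are log2, ± SE. The code was tested on simulated data.

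Named were the 8 largest changes each way, the 3 smallest p-values within each pool, the 6 members with most UMIs, the members of the role lists and the called cofactors. The values of 1 called cofactor are not reported here. Same-numbered embryos were checked for pairing: over 36 pairs the correlation of deviations averaged -0.0156 (-0.248 to 0.224), so they were treated as unpaired. Alternatives were DESeq2 1.42.0, its size factors, other filters, thinning, an adjusted p below 0.05, the replicate block, only the stages compared, and each embryo left out. Counting error and a biological coefficient of variation of 0.442 limit precision. The mapping of tags to a strand is not given, and 58 members overlap a gene on the opposite strand and 39 one on the same strand.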

Additional observations from a re-analysis of the deposited data

Results flagged for a closer look

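In 196 groups of 6 embryos (48 named members in each of 4 stages, and the summed level), 21 held an embryo that stood apart from the other 5 by Dixon's criterion. The criterion is set for 1 in 20 groups of normally distributed values. Many CPM here rest on few UMIs, so the number that chance gives is not known. Groups with 0 UMIs in every embryo, such as Zfp462 in 8CB, could not be judged.

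8CB replicate 5, which had 117256 UMIs, stood apart in 4 members: Zfp820 at 375 CPM (others 12.1 to 96.5), Zfp622 at 2337 CPM (611 to 1052), Zfp384 at 25.6 CPM (0 to 9.34) and Zfp593 at 34.1 CPM (0 to 12.5). The values of Zfp384 and Zfp593 rested on 3 and 4 UMIs, and 8CB replicate 2, a deeper embryo, had as many of each. Among members with a call, the 2CB replicate 3 embryo had 67.8 CPM of Zfp516 (6.19 to 27.9), and 4CB replicate 6 had 152 CPM of Zfp57 (13.3 to 43.5). 4CB replicate 2 had 70.2 CPM of Zfp710 (155 to 203) and 63.8 CPM of Zfp428 (24.8 to 37.7). 2CB replicate 2 had 166 CPM of Zfp706 (51.1 to 89.9). 1C replicate 2 had 152 CPM of Zfp637 (56.6 to 89.6). 2CB replicate 5 had 26.8 CPM of Zfp821 (17.8 to 20.1), and 2CB replicate 4 had 105 CPM of Zfp599 (39.1 to 63.1).

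Among members without a call, 4CB replicate 5 had 203 CPM of Zfp568 (257 to 285) and 1C replicate 6 had 60.6 CPM of Zfp445 (105 to 130). 1C replicate 2 had 48.1 CPM of Zfp687 (0 to 8.09), and 4CB replicate 3 had 118 CPM of Zfp36, the mRNA decay factor tristetraprolin (0 to 19.8). Zfp830 was at 36.4 CPM in 2CB replicate 5 (12 to 20.9) and at 0 CPM in 4CB replicate 6 (25.4 to 38.3). Zfp91 was at 340 CPM in 1C replicate 4 (69.3 to 163), at 61 CPM in 2CB replicate 2 (109 to 138) and at 352 CPM in 8CB replicate 6 (26.2 to 85.3).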

How the results depend on the processing

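With each embryo left out in turn, the members called in 2CB with 4CB against 1C with 8CB numbered 32 to 39, those among the 4 stages 27 to 35, in 2CB against 1C 19 to 30, in 4CB against 8CB 22 to 30, within each pool 0 to 0, and the KRAB cofactors 15 to 18; the difference in summed level ranged from -0.0796 to -0.0447 percentage points. Without a filter on low counts 55 members were called between the pools and 1 in 8CB against 1C. Thinned to equal depth with the filter applied again, 11 members were left, of which 5 were called between the pools, 4 among the stages, 4 in 2CB against 1C and 3 in 4CB against 8CB, and 10 cofactors were called. Thinned with the same genes, 19 were called among the stages, 15 in 2CB against 1C and 15 in 4CB against 8CB. With only the 12 embryos compared, 15 were called in 4CB against 8CB. Thinning and the refilter leave fewer UMIs or genes.

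Of the values of named members under alternatives, 1248 kept their side of the threshold, 8 gained and 22 lost a call. None with a call in either fit changed direction. Values without a call could change sign, as that of Zfp451 did without a filter. Zfp207 lost its call under many of them, and Zfp638 without a filter (adjusted p = 0.172). Thinning with the same genes lost Zfp652, Zfp157, Zfp961, Zfp428, Zfp638, Zfp217 and Zfp207. Zfp148 was called by DESeq2 (adjusted p = 0.0817). With the replicate block 31 members were called between the pools, 25 among the stages, 24 in 2CB against 1C, 25 in 4CB against 8CB, 17 cofactors and 0 within the pools; the numbers do not pair the embryos. Depth limits the 99 members below the filter.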
